A study of Sus scrofa with 12 samples.

Results

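Aminoacyl-tRNA synthetases and the scaffold proteins of their complex were measured in newborn pigs, in the Biceps femoris, a skeletal muscle of the hind limb. The genes were taken by name, from the rows of the expression table whose pig symbol is a 1-letter amino acid code followed by ARS, ARS1 or ARS2, or is EPRS, EPRS1, FARSA, FARSB, AIMP1, AIMP2 or EEF1E1. Described here are 30 of the 22861 gene rows, namely 16 cytosolic enzymes, 12 mitochondrial enzymes (symbols ending in 2) and 2 scaffold proteins. The symbols CARS2, EEF1E1, FARS2, FARSB, MARS2, QARS1, VARS1 and YARS2 matched no named row and are not analysed here, and 11411 rows carried no symbol.

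All animals were male piglets at postnatal day 1, born to purebred Iberian sows of a single farm. The 6 pure Iberian piglets (IB) had Iberian sires, and the 5 Iberian x Duroc piglets (IBxDU) had Duroc sires, so both genetic types share Iberian dams and the IBxDU animals are crosses and not pure Duroc. The labels name 1 further IBxDU animal, which is not analysed here because no column of the table matches it. The authors discarded an IBxDU pig whose sample grouped away from expectation when the samples were clustered. They put this down, as probable, to problems of RNA sampling or processing. The paper does not name that pig. If it is the animal without a column, the IBxDU group was trimmed on expression before the types were compared here. The piglets came from several litters, and since the sources used here do not tie animals to litters, littermates were counted as independent animals. Each value is an RPKM, the reads of a gene scaled by the length of its exons and by the mapped reads of the animal, from RNA of a whole piece of muscle, in which fewer cells of a type and less RNA per cell cannot be told apart. IB values are given as the lowest, the median and the highest animal, and IBxDU values in the order IBxDU-402, IBxDU-412, IBxDU-426, IBxDU-427 and IBxDU-429.

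The animals had 18518497 to 33544359 mapped reads in the RPKM denominator, of which 88.4 to 93.7% fell in exons. The 30 genes took 0.154 to 0.3185% of the exon reads, with 74 to 12912 reads per gene and animal, and all 30 passed the filter on low values. Skeletal muscle markers (5 of 9 matched to a row) were present in every animal, with ACTA1, skeletal alpha actin, between 18623 and 42761 RPKM. IBxDU-402 stood apart in markers of other cells. Its macrophage markers (4 of 5 matched to a row) summed to 65.1 RPKM, against 7.603 to 13.9 in IB and 4.49 to 12.3 in the other IBxDU animals, and MARCO, a macrophage scavenger receptor, measured 29.7 RPKM there and at most 0.793 elsewhere. Its fibroblast markers (4 of 5 matched, with PDGFRA listed at 0 in every animal) summed to 3720 RPKM, against 742 to 2008 in IB and 484 to 1524 in the other IBxDU animals. Its adipocyte markers (2 of 5 matched) summed to 89.9 RPKM, against 0.342 to 47.7 in IB and 2.72 to 27.8 in the other IBxDU animals. Endothelium, T cell and red cell markers also summed highest there, by smaller margins, while B cell, nerve and epithelium markers did not.

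An aminoacyl-tRNA synthetase joins an amino acid to its matching tRNA, the step that fixes the reading of the genetic code before the ribosome. Animal cells keep separate nuclear genes for most cytosolic and mitochondrial enzymes, because mitochondria translate the messages of their own genome with their own tRNAs. Several cytosolic enzymes (among them those for Glu and Pro, Ile, Leu, Lys, Met, Arg and Gln) sit together in the multi-synthetase complex held by the scaffold proteins AIMP1, AIMP2 and EEF1E1, while others are free in the cytosol. In human cells KARS1 and GARS1 make both the cytosolic and the mitochondrial enzyme, so these genes serve both compartments although they are counted as cytosolic here.

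Cytosolic synthetase genes were expressed above mitochondrial ones in all 11 animals. The median over the 16 cytosolic genes ran from 17.7 to 40.4 RPKM between animals (median 22.4), and the median over the 12 mitochondrial genes from 5.89 to 8.52 RPKM (median 6.91). Within an animal the cytosolic median was 2.61 (IB-504) to 4.74 (IBxDU-426) times the mitochondrial median, with 3.38 in the middle animal. This ratio was 2.61 to 3.87 in IB and 3.09 to 4.74 in IBxDU, so the genetic types overlapped. By the sum over each class in place of the median, the ratio was 4.55 to 9.04.

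**Figure D1:**
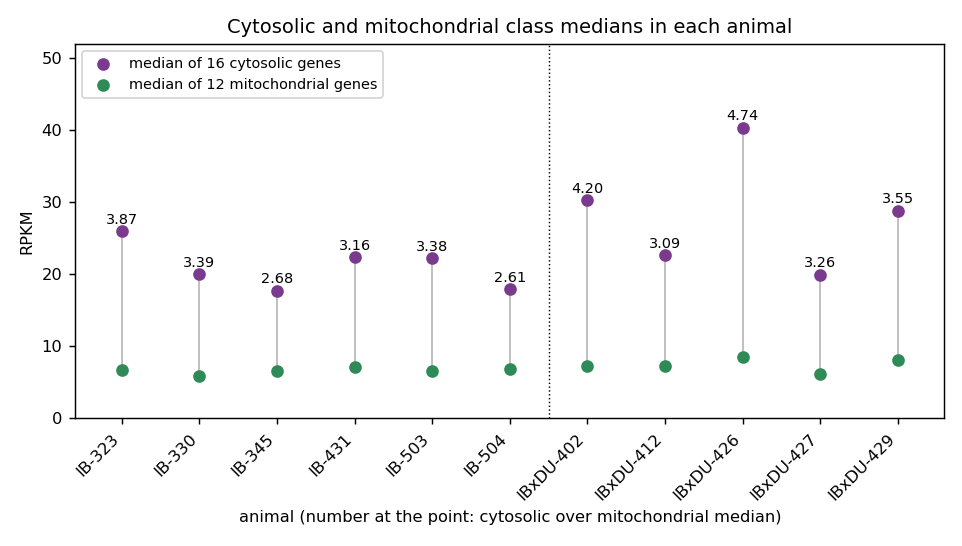
Median RPKM of the 16 cytosolic and of the 12 mitochondrial synthetase genes in each of 6 IB and 5 IBxDU animals, with the ratio of the medians above each cytosolic point. The cytosolic median varied from 17.7 to 40.4 RPKM while the mitochondrial median stayed between 5.89 and 8.52 RPKM.

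For each amino acid whose cytosolic and mitochondrial enzymes were both measured, the cytosolic gene was set against the mitochondrial gene in the same animal. In 8 of 11 such comparisons the cytosolic gene was higher in all 11 animals and the ranges did not overlap. Among the genes described here, the widest gap was between SARS1 and SARS2, the seryl enzymes, with a median ratio of 22.7 (from 9.04 to 36.7). The alanyl enzymes AARS1 and AARS2 followed with 8.78 (4.54 to 22.3), and the asparaginyl enzymes NARS1 and NARS2 with 6.57 (3.55 to 19.2). The exceptions were the isoleucyl, leucyl and threonyl enzymes. IARS1 was above IARS2 in 8 of 11 animals (median ratio 1.26), LARS1 above LARS2 in 9 of 11 (1.196), and TARS1 above TARS2 in 10 of 11 (1.498). HARS1 and HARS2, close relatives whose reads could be shared between the rows, had a median ratio of 2.10 with no overlap of their ranges.

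Among the cytosolic enzymes of the multi-synthetase complex, the lysyl enzyme KARS1 (ENSSSCG00000002704) had the highest level of the 30 genes. KARS1 measured 152, 189 and 238 RPKM in IB and 179.8, 165, 179.7, 189 and 167 RPKM in IBxDU. It was above every other synthetase gene's mean in each animal but its range overlapped that of SARS1, and it made up 19.1 to 41.3% of the summed cytosolic RPKM. The highest animal was IB-431 and the groups overlapped, with all 5 IBxDU animals inside the IB range.

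IARS1 (ENSSSCG00000008068), the isoleucyl enzyme, measured 15.9, 25.7 and 37.3 RPKM in IB and 58.9, 45.3, 40.0, 25.6 and 36.4 RPKM in IBxDU. EPRS1 (ENSSSCG00000010821), which charges both Glu and Pro, measured 18.6, 22.8 and 29.6 RPKM in IB and 32.3, 23.1, 49.7, 27.5 and 42.2 RPKM in IBxDU. IARS1 and EPRS1 were each above the highest IB animal in 3 of 5 IBxDU animals, IARS1 most in IBxDU-402 and EPRS1 most in IBxDU-426. LARS1, the leucyl enzyme, measured 10.05, 12.3 and 21.5 RPKM in IB and 13.4, 13.4, 22.6, 18.6 and 22.8 RPKM in IBxDU, and IB-503 was apart from the other IB animals. The remaining complex enzymes were MARS1, the methionyl enzyme that also charges the initiator tRNA (19.1 to 56.0 RPKM), and RARS1, the arginyl enzyme (17.8 to 28.8 RPKM), whose groups overlapped.

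Of the free cytosolic enzymes, SARS1, the seryl enzyme, had the highest mean (86.3 RPKM). SARS1 measured 35.5, 65.5 and 122 RPKM in IB and 174, 88.3, 131, 62.5 and 79.8 RPKM in IBxDU. The alanyl enzyme AARS1 (ENSSSCG00000002723) measured 22.7, 42.2 and 71.6 RPKM in IB and 115, 51.3, 97.2, 41.0 and 63.1 RPKM in IBxDU. Both were highest in IBxDU-402 and lowest in IB-345, and 3 of 5 IBxDU animals lay within the IB range. GARS1 (ENSSSCG00000016677), the glycyl enzyme, measured 21.8, 34.0 and 60.1 RPKM in IB and 113, 42.0, 112, 39.1 and 48.6 RPKM in IBxDU. IBxDU-402 and IBxDU-426 were far above all other animals in GARS1, and the other 3 IBxDU animals lay within the IB range.

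NARS1 (ENSSSCG00000004542), the asparaginyl enzyme, measured 21.4, 33.8 and 58.3 RPKM in IB and 50.6, 25.7, 88.0, 60.6 and 99.1 RPKM in IBxDU. Its highest animal was IBxDU-429, followed by IBxDU-426, while IBxDU-412 was near the low end of IB. TARS1 (ENSSSCG00000016817), the threonyl enzyme, measured 10.7, 13.3 and 19.0 RPKM in IB and 22.7, 11.7, 40.8, 19.9 and 22.6 RPKM in IBxDU. WARS1 (ENSSSCG00000002516), the tryptophanyl enzyme, which interferon gamma is known to induce in human cells, measured 8.62, 11.2 and 18.5 RPKM in IB and 28.3, 10.17, 27.5, 15.0 and 22.0 RPKM in IBxDU. TARS1 was above the highest IB animal in 4 IBxDU animals and WARS1 in 3, with IBxDU-412 inside the IB range in both.

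YARS1, the tyrosyl enzyme, was the lowest of the cytosolic genes and lay below the mean of every mitochondrial gene. YARS1 measured 0.859, 1.14 and 1.28 RPKM in IB and 1.34, 1.75, 0.452, 1.01 and 1.200 RPKM in IBxDU, on 82 to 225 reads per animal. Whether its gene model in Sscrofa10.2 is complete could not be checked here, so these values describe this row and may not give the level of the gene. IBxDU-426, high in most cytosolic genes, was the lowest animal in YARS1. The cysteinyl enzyme CARS1 (6.55 to 25.7 RPKM), the alpha subunit of the phenylalanyl enzyme FARSA (10.6 to 33.7 RPKM) and the histidyl enzyme HARS1 (12.4 to 22.3 RPKM) lay between RARS1 and WARS1 by their means.

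**Figure D2:**
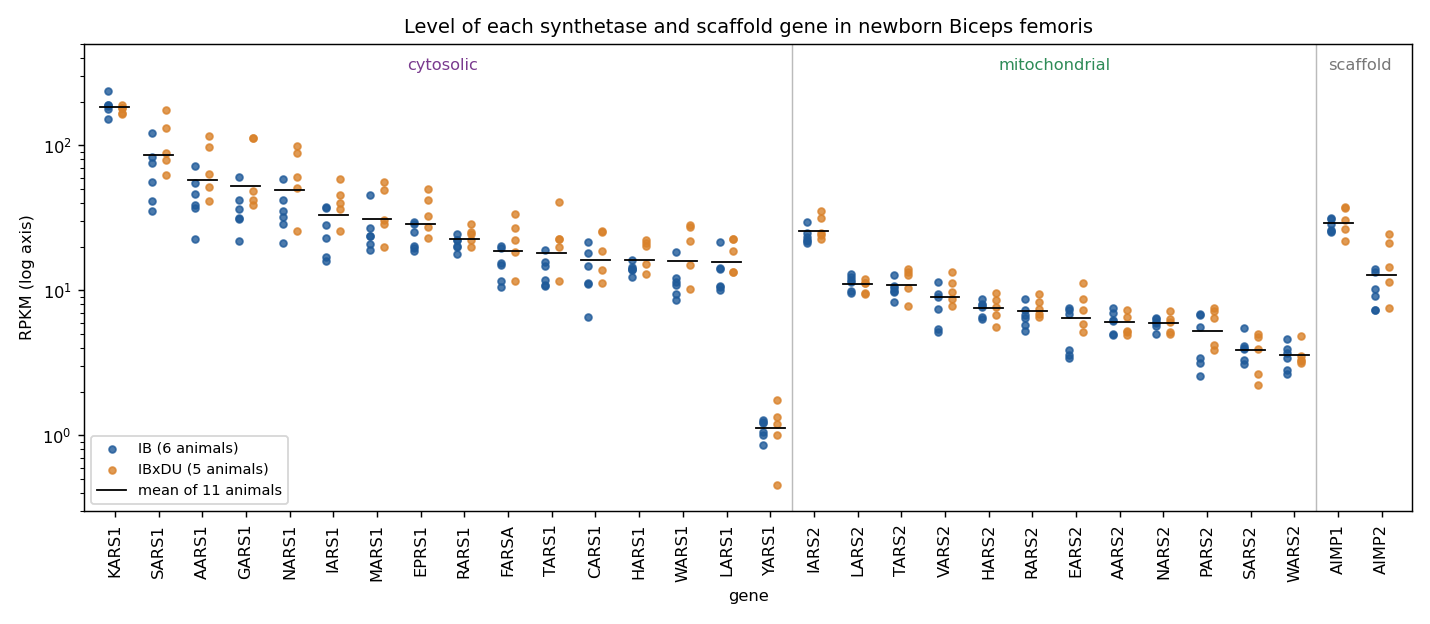
RPKM on a log axis of each of the 30 genes in 6 IB animals (blue) and 5 IBxDU animals (orange), with a line at the mean of 11 animals, ordered by mean within cytosolic, mitochondrial and scaffold genes. KARS1 is highest at a mean of 183 RPKM, and YARS1 at 1.13 RPKM lies below all mitochondrial genes.

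The mitochondrial enzymes were lower and closer to each other. IARS2, the mitochondrial isoleucyl enzyme, was the highest, with 21.4, 22.8 and 29.4 RPKM in IB and 22.8, 24.98, 23.9, 31.7 and 35.1 RPKM in IBxDU. LARS2, the leucyl enzyme, measured 9.64, 11.6 and 13.0 RPKM in IB and 11.9, 11.2, 11.3, 9.38 and 9.65 RPKM in IBxDU. TARS2, the threonyl enzyme, measured 8.37, 10.21 and 12.7 RPKM in IB and 14.1, 12.8, 13.3, 7.80 and 10.3 RPKM in IBxDU. IARS2 was highest in IBxDU-429, LARS2 in IB-345 and TARS2 in IBxDU-402, and the groups overlapped in each. NARS2, the asparaginyl enzyme, measured 4.98, 5.98 and 6.44 RPKM in IB and 7.16, 6.38, 6.05, 5.03 and 5.15 RPKM in IBxDU, again with overlap.

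SARS2, the mitochondrial seryl enzyme, measured 3.08, 3.96 and 5.50 RPKM in IB and 4.76, 2.64, 4.99, 2.21 and 3.93 RPKM in IBxDU. WARS2, the tryptophanyl enzyme, measured 2.65, 3.56 and 4.66 RPKM in IB and 3.31, 3.52, 3.25, 3.13 and 4.84 RPKM in IBxDU. PARS2, the prolyl enzyme, measured 2.55, 4.52 and 6.88 RPKM in IB and 4.19, 3.85, 7.18, 6.41 and 7.58 RPKM in IBxDU. The groups overlapped in all 3, and IBxDU-427 was the lowest animal in SARS2. The remaining mitochondrial genes ranged over 5.20 to 13.5 RPKM (VARS2, valyl), 5.60 to 9.62 RPKM (HARS2, histidyl), 5.26 to 9.47 RPKM (RARS2, arginyl), 3.41 to 11.2 RPKM (EARS2, glutamyl) and 4.91 to 7.50 RPKM (AARS2, alanyl).

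Neighbours in the order of means of the 30 genes seldom separated. WARS2 and YARS1, the lowest of the 12 and of the 16, were the only neighbouring genes whose ranges over 11 animals did not overlap. KARS1 was above SARS1, and SARS1 above AARS1, in 11 of 11 animals although the ranges overlapped. Of the 16 cytosolic means, 8 were above every mitochondrial mean, and 15 were above the second highest mitochondrial mean, that of LARS2.

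The scaffold genes behaved unlike each other. AIMP1, which also carries a released signalling peptide in human cells, measured 25.2, 27.4 and 31.8 RPKM in IB and 22.0, 26.6, 30.7, 37.2 and 37.8 RPKM in IBxDU. AIMP2, the core of the complex, measured 7.30, 9.64 and 14.1 RPKM in IB and 21.2, 7.55, 24.4, 14.4 and 11.3 RPKM in IBxDU. AIMP1 was lowest in IBxDU-402, the animal that was second in AIMP2 after IBxDU-426.

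Cytosolic genes varied more between animals than mitochondrial genes. All SDs and log2 differences were taken on log2(RPKM + 0.1). The SD over 11 animals had a median of 0.56 over cytosolic and 0.25 over mitochondrial genes, beside 0.44 over the 11875 genes tested. It was above the latter in 13 of 16 cytosolic and 2 of 12 mitochondrial genes (EARS2 and PARS2). GARS1 (0.74), NARS1 (0.72) and SARS1 (0.69) had the largest SD, and LARS2 (0.16), NARS2 (0.16) and KARS1 (0.16) the smallest. From the lowest to the highest animal, GARS1 spanned 5.19-fold and KARS1 1.57-fold. The 10 free cytosolic enzymes had a median SD of 0.60 and the 6 complex enzymes 0.44.

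The cytosolic genes also went up and down in the same animals. As a description over 11 animals, in each of which all genes share a library and its depth, the median Pearson r was 0.57 over 120 pairs of cytosolic genes, 0.18 over 66 pairs of mitochondrial genes and 0.12 over pairs of all tested genes. After the mean of each genetic type was removed, these were 0.38, 0.11 and 0.11. Before that removal, pairs of free enzymes had a median r of 0.76 and pairs of complex enzymes 0.15, and after it 0.63 and 0.20. Without that removal, the median r with the other cytosolic genes was highest in GARS1 (0.78), while KARS1 had −0.0048 and YARS1 −0.35. With the mean of each genetic type removed, WARS1 (0.72) and CARS1 (0.72) were above GARS1 (0.66). Among the mitochondrial and scaffold genes, EARS2 (0.59) and AIMP2 (0.57) had the highest values, and with the mean of each type removed SARS2 (0.58) and AARS2 (0.57) were above EARS2 (0.47) and AIMP2 (0.42).

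**Figure D3:**
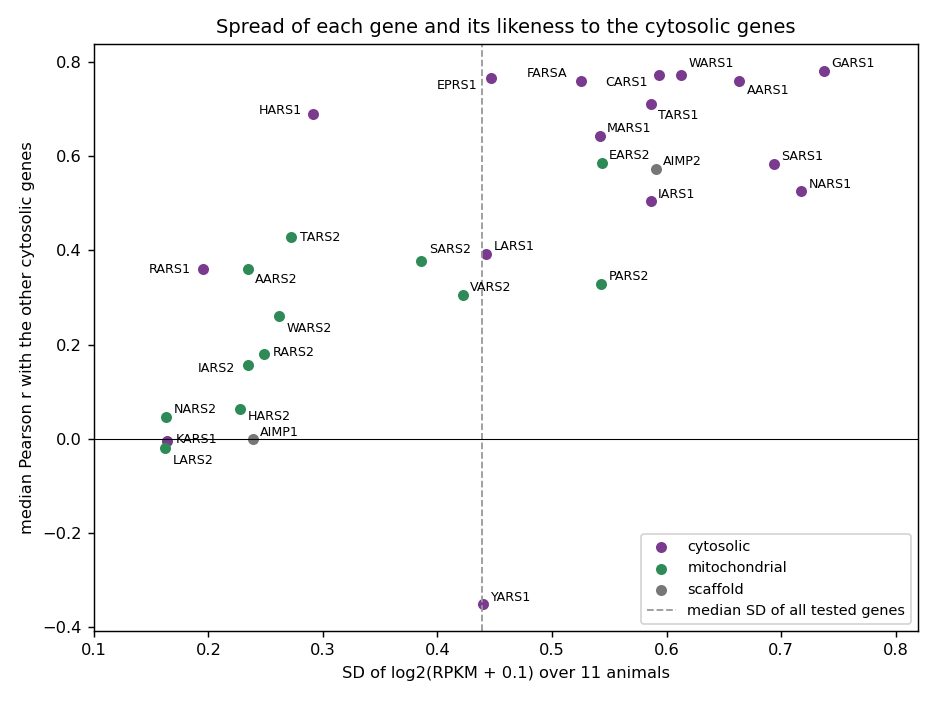
SD of log2(RPKM + 0.1) over 11 animals (x axis) against the median Pearson r with the other cytosolic genes (y axis) for each of the 30 genes, with a dashed line at the median SD of all tested genes. Most cytosolic genes lie at upper right, GARS1 furthest at an SD of 0.74, while KARS1 lies among the mitochondrial genes at an SD of 0.16.

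The animals behind this spread were the same for many genes. IBxDU-402 was the highest animal in 7 of 16 cytosolic genes and IBxDU-426 in 3, and over all tested genes these animals were highest in 22.0 and 3.62%. IBxDU-429 was highest in 4, but also in 27.9% of all tested genes, so its count did not set the cytosolic genes apart. IB-330 was the lowest in 7 and IB-345 in 6 cytosolic genes, and over all tested genes in 7.94 and 12.5%. Relative to each gene's own mean, the median cytosolic gene stood at 0.75 (log2) in IBxDU-426, 0.42 in IBxDU-402, 0.34 in IBxDU-429 and −0.60 in IB-345, where the median of all tested genes stood at −0.16, 0.11, 0.30 and −0.12. The macrophage and fibroblast markers that were highest in IBxDU-402 were lowest of all 11 animals in IBxDU-426, at 4.49 and 484 RPKM summed, while cytosolic synthetases were high in both animals. The 5 skeletal muscle markers summed highest in these same animals, to 64817 RPKM in IBxDU-426 and 58966 in IBxDU-402, and ranged from 28955 (IBxDU-429) to 50745 (IB-330) in the others. Most of this sum was ACTA1, which measured 42761 and 40439 RPKM in these animals. The other muscle markers did not share this order. TNNC2 was highest in IBxDU-426 (12730 RPKM) but measured 10126 in IBxDU-402, and MYH8 was highest in IB-330. MYH3 was lowest in IBxDU-426 (11.4 RPKM) and measured 12.0 in IBxDU-402, with its highest value of 80.9 in IB-431. DES measured 3059 RPKM in IBxDU-426 and 1847 in IBxDU-402, with its highest value of 4657 in IB-345. The part of these marker levels in the synthetase levels was not tested.

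**Figure D4:**
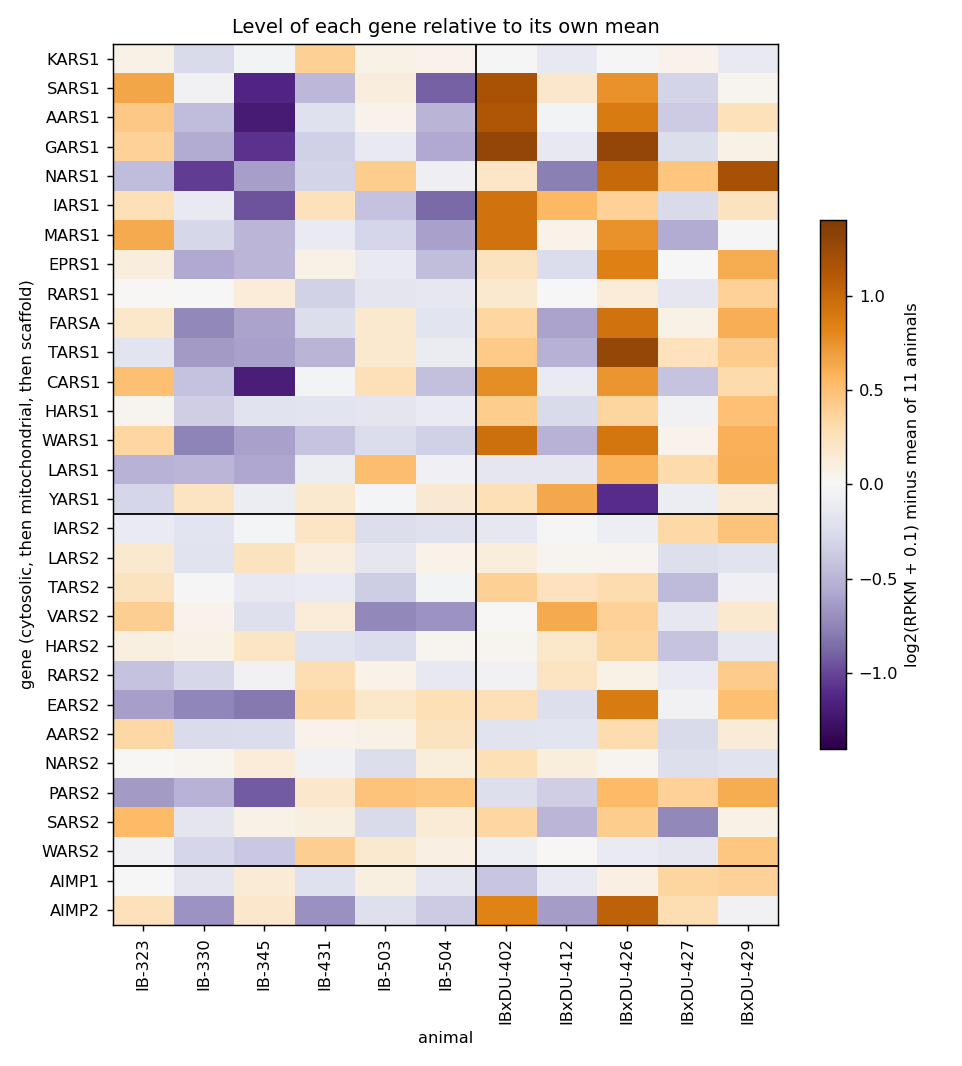
Level of each of the 30 genes in each animal relative to the gene's own mean, as log2(RPKM + 0.1) minus the mean of 11 animals, with cytosolic, mitochondrial and scaffold genes in blocks and IB left of IBxDU. IBxDU-402 and IBxDU-426 are high and IB-345 is low in most cytosolic genes, and the mitochondrial block is paler.

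The genetic types were compared with limma over all 11875 genes that passed the filter. No synthetase or scaffold gene passed a Benjamini-Hochberg adjusted p of 0.05, where 0.0168% of all genes did, and the lowest adjusted p among the 30 was 0.560 (WARS1). At an unadjusted p of 0.05, 7 of the 16 cytosolic genes (43.8%) were higher in IBxDU, beside 6% of all tested genes, and none of the 12 mitochondrial or 2 scaffold genes was. None of the 30 was higher in IB at that threshold, which 2.02% of all genes passed. In none did every IBxDU animal lie above every IB animal (0.808% of all genes) or below every IB animal (0.227%). Of 23 tested markers of muscle and of other cell types, 0 were higher in IBxDU at an unadjusted p of 0.05 and 1 was lower (KRT10, a keratin of epithelium, at 0.883, 0.926 and 1.36 RPKM in IB and 0.691, 0.465, 0.676, 0.302 and 0.548 RPKM in IBxDU).

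The 7 genes were free enzymes in 5 cases and complex enzymes in 2. WARS1 had a log2 fold change (IBxDU minus IB) of 0.74 ± 0.28 (SE), with an unadjusted limma p of 0.0185 and an exact two-sided permutation p over all relabelings of the animals of 0.0476. GARS1 had 0.83 ± 0.33, with p = 0.0234 and an exact permutation p of 0.0606. TARS1 had 0.68 ± 0.27, with p = 0.0242 and an exact permutation p of 0.0411. All 5 IBxDU animals exceeded the IB mean in GARS1 and IARS1, and 4 of them did so in each of the other 5 genes. The log2 fold changes of IARS1, NARS1, AARS1 and EPRS1 were 0.67 ± 0.27, 0.76 ± 0.33, 0.68 ± 0.31 and 0.53 ± 0.22, with exact permutation p-values of 0.0606, 0.0823, 0.0909 and 0.0433. Over the 7 genes the adjusted limma p was 0.560 to 0.609.

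The log2 fold change was above 0 in 14 of 16 cytosolic and 9 of 12 mitochondrial genes, beside 7947 of all 11875 tested genes. The cytosolic exceptions were KARS1 (−0.094 ± 0.14) and YARS1 (−0.049 ± 0.30). The median was 0.52 over the cytosolic and 0.094 over the mitochondrial genes, beside a median of 0.13 over all tested genes. That overall shift came out as 0.014 after an upper quartile and 0.011 after a median-of-ratios scaling of the animals, with 3.13 and 2.97% of all tested genes then higher in IBxDU and 4.32 and 4.48% higher in IB at an unadjusted p of 0.05. Under both scalings 14 of 16 cytosolic genes were above 0 with a median of 0.40. The mitochondrial genes above 0 went to 6 of 12, with medians of −0.021 and −0.024, and all tested genes above 0 went to 6161 and 6117 of 11875. The number of synthetase and scaffold genes higher in IBxDU at an unadjusted p of 0.05 went from 7 to 1 (WARS1) and 0. The count also rested on single animals. It was 1 without IBxDU-426, 2 without IB-345 and 4 without IB-330, IB-504, IBxDU-402 or IBxDU-429, and it was 0 without IBxDU-402 and IBxDU-426 together. The cytosolic median log2 fold change also fell without these animals. It was 0.37 without IBxDU-426, beside 0.19 over all tested genes. Without both animals it was 0.27, beside 0.17 over all tested genes, with 15 of 16 cytosolic genes above 0.

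**Figure D5:**
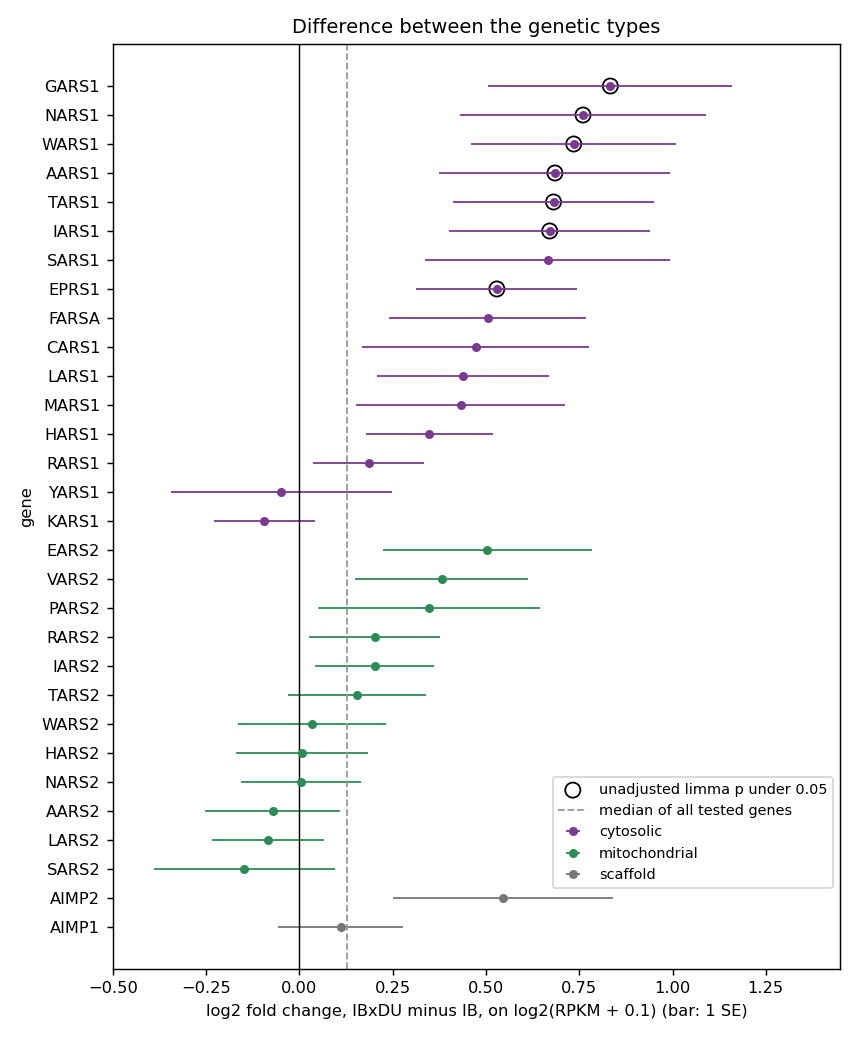
Log2 fold change of IBxDU over IB on log2(RPKM + 0.1) with 1 SE from limma for each of the 30 genes, with circles around the 7 genes at an unadjusted p under 0.05 and a dashed line at the median of all tested genes (0.13). Cytosolic genes lie right of 0 except KARS1 and YARS1, and this count of 14 of 16 held under both other scalings. The mitochondrial genes above 0 went from 9 to 6 of 12, and all tested genes above 0 went from 7947 to 6161 and 6117 of 11875.

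Genes that serve charged tRNAs before and after the synthetases were read from further lists. Of 6 tested tRNA accessory genes, 2 were higher in IBxDU at an unadjusted p of 0.05, beside 6% of all tested genes. XPOT, which exports tRNA from the nucleus, measured 18.2, 21.4 and 25.2 RPKM in IB and 41.2, 29.3, 42.9, 25.5 and 36.5 RPKM in IBxDU, without overlap of the groups. Its log2 fold change was 0.70 ± 0.17 with an unadjusted limma p of 0.00108 and an adjusted p of 0.405. The median r of XPOT with the 16 cytosolic synthetases was 0.74, without the mean of each genetic type removed, so the difference between the types enters this value. DTD2, an editing enzyme that removes wrongly attached amino acids from tRNA, measured 1.19, 1.67 and 2.16 RPKM in IB and 2.65, 2.26, 2.70, 1.61 and 3.18 RPKM in IBxDU, with overlap (log2 fold change 0.50 ± 0.23, limma, adjusted p = 0.611).

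Of the list of cytosolic elongation factors and their regulators, 4 of 9 symbols matched a row, and the EEF1A factors that carry charged tRNA to the ribosome were not among them. The 4 genes were EEF1B2 and EEF1D, subunits of the exchange factor that recharges EEF1A with GTP, EEF2 and its inhibitory kinase EEF2K, and 0 of them passed that threshold in either direction, with a median log2 fold change of −0.055. EEF2, the translocation factor, measured 689.7, 747 and 1074 RPKM in IB and 787, 790.4, 746, 619 and 614 RPKM in IBxDU (log2 fold change −0.19 ± 0.15). Beside 6% of all tested genes, 1 of 9 tested mitochondrial translation factors was higher in IBxDU. This was GFM2, a mitochondrial ribosome recycling factor, with 1.76, 2.38 and 3.17 RPKM in IB and 3.34, 3.58, 3.79, 3.21 and 6.37 RPKM in IBxDU, without overlap (log2 fold change 0.75 ± 0.23, limma, adjusted p = 0.477).

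In the integrated stress response, ATF4 is known in mammalian cells to raise transcription of amino acid synthesis genes and of several cytosolic synthetases. Of its 31 listed symbols, 18 matched a row and were tested, and ATF4 was not among them. At an unadjusted p of 0.05, 2 of the 18 genes were higher and 1 lower in IBxDU, beside 6 and 2.02% of all tested genes. The median log2 fold change of the 18 genes was 0.70, beside 0.13 over all tested genes. ASNS, asparagine synthetase of amino acid metabolism, measured 2.12, 7.59 and 62.2 RPKM in IB and 141, 32.9, 54.8, 14.1 and 17.9 RPKM in IBxDU. Its lowest animal was IB-345 and its highest IBxDU-402, as in AARS1, GARS1 and SARS1, and IB-323 and IBxDU-426 were next. The log2 fold change of ASNS was 1.84 ± 0.79, with an adjusted limma p of 0.583.

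GPT2, the mitochondrial alanine aminotransferase, measured 0.188, 0.559 and 1.18 RPKM in IB and 4.88, 1.23, 3.17, 0.360 and 0.726 RPKM in IBxDU (log2 fold change 1.29 ± 0.58, limma, adjusted p = 0.609). ATF3, a stress-induced transcription factor, went the other way, with 12.1, 197 and 1513 RPKM in IB and 14.1, 36.1, 28.5, 49.2 and 53.5 RPKM in IBxDU (log2 fold change −2.14 ± 0.96, limma, adjusted p = 0.609). The groups overlapped in both genes. The part of the stress response in the synthetase levels was not tested.

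At an unadjusted p of 0.05, 6% of all tested genes were higher in IBxDU and 2.02% lower. Of 14 tested amino acid transporters, 0 were higher and 1 was lower. This was SLC38A3, a glutamine transporter, with 11.2, 18.9 and 23.0 RPKM in IB and 10.1, 13.4, 11.1, 10.1 and 7.89 RPKM in IBxDU (log2 fold change −0.74 ± 0.21, limma, adjusted p = 0.453). All 5 IBxDU animals lay below the IB mean, with overlap of the groups. The interferon response list, read because of WARS1, had 1 of 13 tested genes higher in IBxDU. This was TAP2, a peptide transporter of antigen presentation, with 0.872, 1.41 and 2.48 RPKM in IB and 9.74, 5.17, 4.99, 2.04 and 3.85 RPKM in IBxDU (log2 fold change 1.59 ± 0.37, limma, adjusted p = 0.405). The median log2 fold change of the 13 genes was −0.038, beside 0.13 over all tested genes and 0.74 for WARS1. The matched genes of this list summed highest in IBxDU-402, the highest animal in WARS1, at 152 RPKM. The sum was 73.9 to 106 RPKM in IB and 69.6 to 104 in the other IBxDU animals, with 75.4 in IBxDU-426, the second in WARS1. The part of the interferon response in the WARS1 level was not tested.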

How the data were processed

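RNA was sequenced as paired reads of 76 bases from 1 muscle sample per animal, and the authors mapped the reads to Sscrofa10.2 and its annotated genes in CLC Bio Genomic Workbench 7.0. The authors deposited 1 RPKM value per gene and animal, and 2 further columns of the deposited table hold their own p-values and fold changes between the genetic types, which were not used. Gene symbols came from a gene table for 11450 of 22861 identifiers, and coordinates were not used here. The steps between values gave whole reads (within 1e-06) for all 16953 genes above 0, and from these the mapped reads and the reads per gene. Whether the unit is a read or a read pair is not given in the sources used here. Each gene's length was taken as the smallest that makes its reads whole. Genes with few reads carry the most counting error, and all tests used the spread between animals.

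Values were taken as log2(RPKM + 0.1), and genes were kept where IB or IBxDU averaged over 0.5 RPKM, which left 11875, and were fitted with limma 3.58.1 (trended empirical Bayes, statmod 1.5.0, R 4.3.3), genetic type being the only term, with Benjamini-Hochberg adjustment over all of them. A count test used by the authors was replaced because the deposited values are RPKM, and the recovered reads were tested only in the voom alternative. Only synthetase genes at an unadjusted limma p under 0.05 had an exact permutation test over all relabelings of the animals. They were picked on the same difference in the same animals, so this is not independent evidence. Levels, spreads and correlations are descriptions. The alternatives were a pseudocount of 1 RPKM, no filter, upper quartile and median-of-ratios scaling, leaving out each animal, and, chosen after seeing the data, leaving out IBxDU-402 and IBxDU-426 together and a voom fit on the recovered reads. The recovery of reads and the limma fit were tested on simulated data. Other tools were Python 3.11.15, numpy 2.4.6, pandas 2.3.3 and matplotlib 3.10.9.

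Some genes that the naming rule finds are not reported here, and all 30 others are named with a level. Values by animal are given for genes at an unadjusted p under 0.05, the 3 highest and 3 lowest of each class, the 3 largest and 3 smallest SDs, the scaffold genes and the amino acids whose mitochondrial gene is higher in any animal. From each other list, genes at an unadjusted p under 0.05 are named, or else the highest by mean, and MARCO was added after its values were seen. The members and lists were chosen with earlier results of these data known.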

Additional observations from a re-analysis of the deposited data

Results flagged for a closer look

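In each of 60 groups (30 genes in 6 IB and in 5 IBxDU animals) the highest and lowest animals were compared with their nearest neighbour by Dixon's 95% criterion, and 4 values stood apart, where chance gives about 1 in 20 groups. LARS1 measured 21.5 RPKM in IB-503, with the next IB animal at 14.3. In IB-323, MARS1 measured 45.3 RPKM (next 27.0) and WARS1 18.5 RPKM (next 12.3). WARS2 measured 4.84 RPKM in IBxDU-429, with the next IBxDU animal at 3.52.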

How the results depend on the processing

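No paired analysis was possible because the animal numbers of the genetic types differ and no label links an IB to an IBxDU animal. Of 663 single-gene values under the alternatives, 636 kept their direction and their side of the adjusted threshold and 27 turned direction; none passed that threshold. The number of synthetase and scaffold genes higher in IBxDU at an unadjusted p of 0.05 was 7 with a pseudocount of 1 RPKM and with voom (the same 7 genes), 8 without the filter, 1 with upper quartile and 0 with median-of-ratios scaling, 0 without IBxDU-402 and IBxDU-426 together, and 1 to 10 when animals were left out 1 at a time. Over all tested genes, 6% were higher in IBxDU at an unadjusted p of 0.05, against 3.13% (upper quartile), 2.97% (median-of-ratios) and 2.86 to 8.41% without 1 animal (2.86% without IBxDU-429), and 2.02% were higher in IB, against 4.32, 4.48 and 1.31 to 3.47% (3.47% without IBxDU-412, 3.19% without IBxDU-402, 1.31% without IBxDU-426). Genes past the adjusted threshold were 2, against 1 with either scaling and with voom and 1 to 2 without 1 animal. The cytosolic to mitochondrial ratio was 6.07 by class sums. The log2 fold changes that turned were near 0: HARS2 (−0.11 with either scaling, −0.12 without IBxDU-402 and IBxDU-426, −0.081 to 0.11 without 1 animal), NARS2 (−0.11 with either scaling, −0.10 without both, −0.065 to 0.061), WARS2 (−0.080 with upper quartile and −0.083 with median-of-ratios scaling, −0.073 to 0.12), AIMP1 (−0.0062 and −0.0090), TARS2 (−0.021 without both), YARS1 (0.21 without both, −0.22 to 0.22 without 1 animal) and SARS2 (−0.27 to 0.016 without 1 animal). The cause of these turns was not tested. SARS2, with 74 reads in its lowest animal, and YARS1, with 82, rest on the fewest reads of the 30 genes.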
